A study of Mus musculus with 12 samples.

Results

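The replication-dependent histone genes are the large family that supplies new histone proteins while DNA is copied. They were chosen here by name: every gene of the table whose symbol is H2ac, H2bc, H3c or H4c followed by a number, plus the linker histone genes H1f1 to H1f5. This gave 54 of 25208 genes: 5 H1 genes, 14 H2A genes, 14 H2B genes, 12 H3 genes and 9 H4 genes. The rule itself reads only the symbols. RNA was sequenced from mpkCCDc11 cells, an immortalised mouse line from the cortical collecting duct of the kidney, labelled wild type. All cells were grown on permeable supports for 4 days after transfection with 50 nM siRNA, which was either a control siRNA or one against Ctnnb1, the gene of β-catenin. After 24 h without serum and hormones they received vehicle or 1 nM dDAVP at the basolateral side for 24 h. dDAVP is an agonist of the vasopressin V2 receptor, through which the hormone raises water permeability in this part of the kidney. The 4 groups were therefore control siRNA with vehicle, control siRNA with dDAVP, Ctnnb1 siRNA with vehicle and Ctnnb1 siRNA with dDAVP, with 3 libraries each. The siRNA lowers the Ctnnb1 mRNA without removing the gene. The labels do not say whether libraries of a group came from separate cultures, so p-values measure only the spread between these libraries, which may be technical.

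Nucleosomes consist of DNA wound around a core of H2A, H2B, H3 and H4, and the linker histone H1 binds where the DNA enters and leaves that core. The mRNAs of this family usually have no poly(A) tail. They end in a conserved stem-loop that is bound by the stem-loop binding protein SLBP and cut downstream of it with the help of the U7 small nuclear RNP, and they are degraded quickly when DNA synthesis stops. Ribosomal RNA was removed from total RNA before library preparation, without selection for a poly(A) tail, so such mRNAs can be counted. In bulk RNA, a change in the number of cells in S phase and a change in histone RNA per cell cannot be told apart.

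The element that sets this family apart is its 3′ stem-loop, which was looked for in the annotated transcripts as 6 base pairs around a 4-base loop within 100 bases after the stop codon. Only stems that begin with GG and hold no G-U pair were accepted, so the leading GG below was set by the search. It was found in 36 of 54 genes, at a median of 31 bases after the stop codon (range 21 to 58). Of the 18 genes without a match, 15 had less than 40 bases of annotated sequence after the stop codon, so those annotations may be too short to hold it. The stem began with GGCTC in 28 genes (3 H1, 8 H2A, 8 H2B and 9 H3 genes). In the 8 H4 genes with a match it began with GGCCC (6 genes) or GGTCC (2 genes). The examples below run 5′ to 3′ on the strand of the mRNA, with the 16-base stem-loop in capitals and 5 bases on each side in lower case. They show the stem that H1, H2A, H2B and H3 genes share and how the H4 genes depart from it.
H1f2: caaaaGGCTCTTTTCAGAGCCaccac
H2ac18: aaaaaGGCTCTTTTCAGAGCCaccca
H2ac20: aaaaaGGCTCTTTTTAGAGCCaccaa
H2bc3: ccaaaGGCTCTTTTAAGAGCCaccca
H3c3: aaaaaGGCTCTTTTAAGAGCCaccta
H4c4: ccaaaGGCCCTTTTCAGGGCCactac
H4c11: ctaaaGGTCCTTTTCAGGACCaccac
H4c14: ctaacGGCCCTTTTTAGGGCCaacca
The element of H4c4 lies at chr13:23581945-23581970 and that of H4c14 at chr3:96262934-96262959 on the minus strand (GRCm38).

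Of the 54 genes, 44 lie on chromosome 13 and 10 on chromosome 3, and 53 have at least 1 annotated transcript with 1 exon. Neighbouring genes often point away from each other: 10 pairs had start sites within 1000 bases on opposite strands, and 9 of these were an H2A gene beside an H2B gene. RefSeq promoter sequences (GRCm38.p6, 250 bases before to 50 after the start site) were at hand for 49 of the 54 genes and for 27025 genes in all. The letters TATAA were in 75.5% of the 49 promoters and in 28.0% of all promoters, both strands read. CCAAT was in 89.8% against 41.1%, although in only 3 of the 8 H4 promoters. The octamer ATGCAAAT, known from H2B promoters, was in 13 of the 49 (7 of 12 H2B and 6 of 14 H2A promoters), against 1.97% of all promoters. These matches are not all separate, since the promoter windows of divergent neighbours overlap and the same site can count for both. Both partners held the octamer in the pairs H2ac1 and H2bc1, H2ac8 and H2bc8, and H2ac12 and H2bc12, with start sites 281, 180 and 178 bases apart. AAACACAA, known as the H1 box, was in 5 of the 49 (3 of them H1 genes), against 2.26%. The 130 bases before the start site are printed below for the most abundant H1, H2B and H4 gene. Capitals mark AAACACAA and CCAAT in H1f2 (chr13:23738677-23738806). In H2bc18 (chr3:96269570-96269699) they mark CCAAT, the octamer read on the minus strand as ATTTGCAT, and TATAA. In H4c4 (chr13:23581438-23581567) they mark CCAAT read on the minus strand as ATTGG and TATAA, which overlaps its copy on the other strand. All are written on the plus strand of GRCm38, which is the strand of these genes. A match describes letters only and is no measure of binding.
H1f2: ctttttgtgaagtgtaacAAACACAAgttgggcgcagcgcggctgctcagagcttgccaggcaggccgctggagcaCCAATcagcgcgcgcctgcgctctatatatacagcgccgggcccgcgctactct
H2bc18: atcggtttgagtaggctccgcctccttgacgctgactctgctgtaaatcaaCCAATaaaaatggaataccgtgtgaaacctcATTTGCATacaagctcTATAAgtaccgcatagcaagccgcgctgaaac
H4c4: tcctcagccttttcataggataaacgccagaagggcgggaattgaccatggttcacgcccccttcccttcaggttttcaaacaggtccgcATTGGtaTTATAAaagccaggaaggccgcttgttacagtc

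Histone genes were among the most abundant mRNAs of these cells. Levels between genes are given in TPM (the authors' values, each gene's share of all transcripts after division by its length) as the mean ± SD over all 12 libraries. The highest were H4c4 with 3175 ± 315 TPM, H2bc18 with 2389 ± 187 TPM and H1f2 with 2366 ± 179 TPM, at ranks 17, 28 and 30 of all genes. In all, 14 of the 54 genes were among the 100 most abundant genes and 49 among the first 500. The median over the 54 genes was 746 TPM. The class medians were 1603 TPM for the 5 H1 genes, 533 for H2A, 952 for H2B, 712 for H3 and 990 for H4. The H3 genes were the most even class, from 479 to 987 TPM, and the H2A and H2B genes the most uneven.

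Almost every gene of the family was expressed. The lowest were the pair H2ac1 and H2bc1, known as testis-type histone genes, whose start sites are 281 bases apart. H2ac1 had 17 reads over the 12 libraries and a mean of 0.0808 TPM, and was the only one of the 54 genes too low to be tested. H2bc1 was low but read in every library (2.46 to 6.73 CPM), at a mean of 21.7 TPM. It shares 38.2% of the 50-base windows of its coding sequence with other genes. H2bc21, which encodes an H2B variant known from olfactory neurons, stood at 41.4 TPM and H2ac21 at 147. The other 50 genes lay between 239.8 TPM (H4c9) and 3175 TPM (H4c4).

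**Figure D1:**
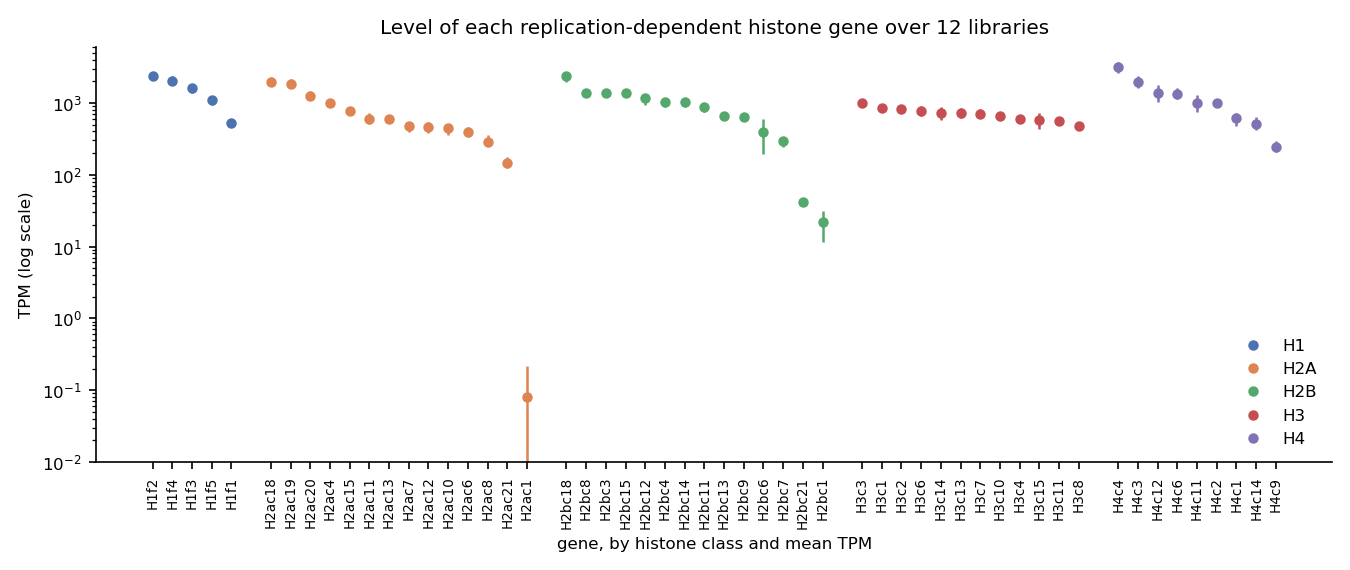
Mean TPM of each of the 54 genes (points, log axis) with the lowest and highest of the 12 libraries (lines), ordered within each histone class. Of the 54 genes 49 are among the 500 most abundant, and the testis-type H2ac1 stands apart at 0.0808 TPM (its line is cut at the lower edge of the axis because it reaches 0).

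Copies of a class are so alike that reads can fit several genes, and how such reads were counted is not stated. Of all 50-base windows of a coding sequence, a median of 73.2% also occurred in the transcripts of another gene. For 43 of the 54 genes over 50% of the windows were shared, and 6 genes (4 H2A and 2 H3) had no window of their own. H2ac18 and H2ac19 were fully shared, whereas H4c14 had only 6.08% shared windows and H1f2 21.9%. Values of single genes are therefore uncertain where the share is high, and sums over a class depend less on how reads were divided within it.

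The libraries held 32997720 to 48935473 counted reads, of which 420375 to 719311 fell on the 54 genes. Ctnnb1 stood at 306 to 334 CPM (reads scaled to the library's total) with its siRNA and 745 to 766 with control siRNA under vehicle, and 326 to 342 against 776 to 811 under dDAVP. It was 2.39-fold lower under vehicle and 2.37-fold lower under dDAVP, with edgeR adjusted p = 6.30e-10 and 7.64e-10, and p = 0.1 in an exact two-sided permutation test of 3 against 3, the smallest that design allows. Markers of epithelium were high (Epcam 489 to 559 CPM, Cdh1 485 to 568). Aqp2, the water channel of principal cells, was at 0 to 7.69 CPM and rose with dDAVP (log2 8.38 with control siRNA, 5.85 with Ctnnb1 siRNA). Of the 12 principal cell markers in the table, Gata3 (43.4 to 71.2 CPM), Avpr2, Tmem45b, Scnn1a and Hsd11b2 were higher. Aqp3, Aqp4, Scnn1b, Scnn1g, Elf5 and Fxyd4 stayed at or below 4.88 CPM. Atp6v1b1 of intercalated cells (53.0 to 67.1 CPM) and Lrp2 of proximal tubule (70.7 to 95.8 CPM) were also read. Of the 5 leukocyte markers in the table Ptprc, Itgam and Cd79a lay at or below 0.274 CPM, while Cd68 read 2.45 to 4.72 and Csf1r 20.96 to 27.7 CPM in every library. 1 library stood furthest from its group in the histone genes: Ctnnb1 siRNA with dDAVP, replicate 3. It was the lowest of its 3 libraries for 52 of the 53 tested histone genes (for 38.81% of all tested genes). Its median deviation was -0.35 on the log2 scale, against 0.00 over all genes. The counts and medians below are therefore given with and without it where they moved. It was picked out by the histone values themselves, so calls made without it are no independent support. In the same group, replicate 2 deviated almost as far upwards. It was the highest for 48 of the 53 (for 32.92% of all tested genes), by a median of 0.30 on the log2 scale. The family also shifted together, by less, within the vehicle groups. With control siRNA, replicate 1 was the highest for 39 of the 53 (34.5% of all tested genes, median 0.12) and replicate 3 the lowest for 39 (30.8%, -0.12). With Ctnnb1 siRNA, replicate 1 was the highest for 39 (36.0%, 0.07) and replicate 2 the lowest for 41 (28.5%, -0.09).

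As a share of all counted reads, the 54 genes took 1.36%, 1.27% and 1.23% with control siRNA and vehicle (1.29% ± 0.0645, SD, n = 3). With control siRNA and dDAVP the shares were 1.31%, 1.37% and 1.34% (1.34% ± 0.0325, SD, n = 3). With Ctnnb1 siRNA and vehicle they were 1.56%, 1.44% and 1.52% (1.50% ± 0.0622, SD, n = 3), all above the 3 control libraries of the same treatment. With Ctnnb1 siRNA and dDAVP they were 1.46%, 1.62% and 1.19% (1.42% ± 0.216, SD, n = 3), with replicate 3 the lowest of all 12 libraries and replicate 2 the highest. The ratio of Ctnnb1 to control siRNA was 1.17 ± 0.0757 under vehicle (SD propagated from both groups) and 1.06 under dDAVP, where it was 1.15 without that replicate 3. These sums were described and not tested. The share of small structural RNAs was higher in the same direction: 1.94%, 1.50% and 1.32% with control siRNA and vehicle, and 2.14%, 2.29% and 2.12% with Ctnnb1 siRNA and vehicle. Under dDAVP it was 1.67%, 2.49% and 2.05% with control siRNA and 2.49%, 3.07% and 1.61% with Ctnnb1 siRNA, so that replicate 3 of the last group was again its lowest and replicate 2 its highest. Mitochondrial ribosomal RNA ran the other way in that group, at 0.831%, 0.464% and 1.52%. With small structural RNA and mitochondrial RNA taken out of the total, the ratio of histone shares under vehicle was again 1.17. With small structural RNA and mitochondrial ribosomal RNA left out of the fit, the medians and calls below did not move. Whether histone and small structural RNA share a source of variation between libraries was not tested.

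**Figure D2:**
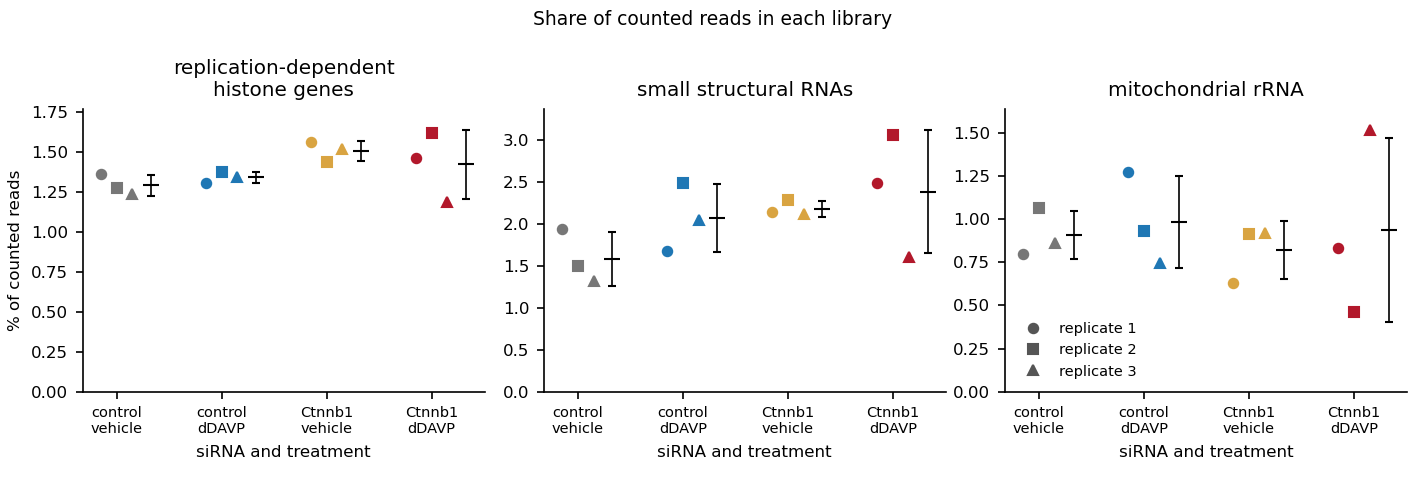
Share of counted reads (%) on the 54 histone genes, on small structural RNAs and on mitochondrial ribosomal RNA in each of the 12 libraries; symbols mark the replicate, bars the mean ± SD of 3 libraries. Ctnnb1 siRNA with dDAVP spreads from 1.19% to 1.62% in histone reads, and its replicate 3 is low in histone and small structural RNA and high in mitochondrial ribosomal RNA.

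The comparison of the siRNAs under vehicle asks how the family responds when β-catenin mRNA is lowered without hormone. All 53 tested genes had a fold change above 0, from 0.08 to 0.50 on the log2 scale, with a median of 0.22 (-0.00 over all 16508 tested genes, of which 49% were above 0). On log2(TPM + 1), where the median of all genes was -0.07, it was 0.14, again with all 53 above 0. A log2 offset for gene length had a family median of -0.019, -0.020 and -0.063 in the control siRNA libraries. In the Ctnnb1 siRNA libraries it was 0.043, 0.056 and 0.0079, so the groups also differ in how reads depend on gene length. In a fit with this offset, H4c14 had log2 0.38, against 0.46 without it. Over 11 alternatives that drop no single library, this offset among them, the family's median ran from 0.14 to 0.23. How much of the median goes with gene length was not tested further. No histone gene passed edgeR's quasi-likelihood test (adjusted p under 0.05 over all tested genes); of all genes 0.206% were called higher and 0.224% lower. The smallest adjusted p was 0.0504, for H4c14. At an unadjusted p under 0.05, 30 of the 53 were higher and 0 lower, against 4.17% of all genes higher and 3.92% lower. In 34 of the 53 all 3 Ctnnb1 siRNA libraries lay above all 3 control libraries, which 8.95% of all tested genes did, and in 0 they lay below (9.26%). The genes of the family shifted together between libraries within both of these groups, so the 53 are not separate readings. DESeq2 called 1 gene, H4c14 (0.665% of the genes with an adjusted p). The class medians were 0.20 for H1, 0.18 for H2A, 0.19 for H2B, 0.24 for H3 and 0.37 for H4. Genes with a share of coding windows under 50% had a median of 0.24 (n = 10) and the others 0.21 (n = 43).

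The number of calls depended on a library outside this comparison. The fit takes its spread from all 12 libraries, and without replicate 3 of Ctnnb1 siRNA with dDAVP, which is in neither group of this comparison, 12 of the 53 genes were called higher and 0 lower, against 0.583% of all genes called higher. These 12 were H1f2, H1f4, H3c6, H3c11, H3c13, H3c14, H3c15, H4c4, H4c6, H4c9, H4c11 and H4c14. Only H4c14 was called without replicate 1 or replicate 2 of that group, or without replicate 2 of control siRNA with dDAVP. With only the 6 libraries of the comparison in the fit, 18 genes were called higher, where 0.943% of all genes were.

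**Figure D3:**
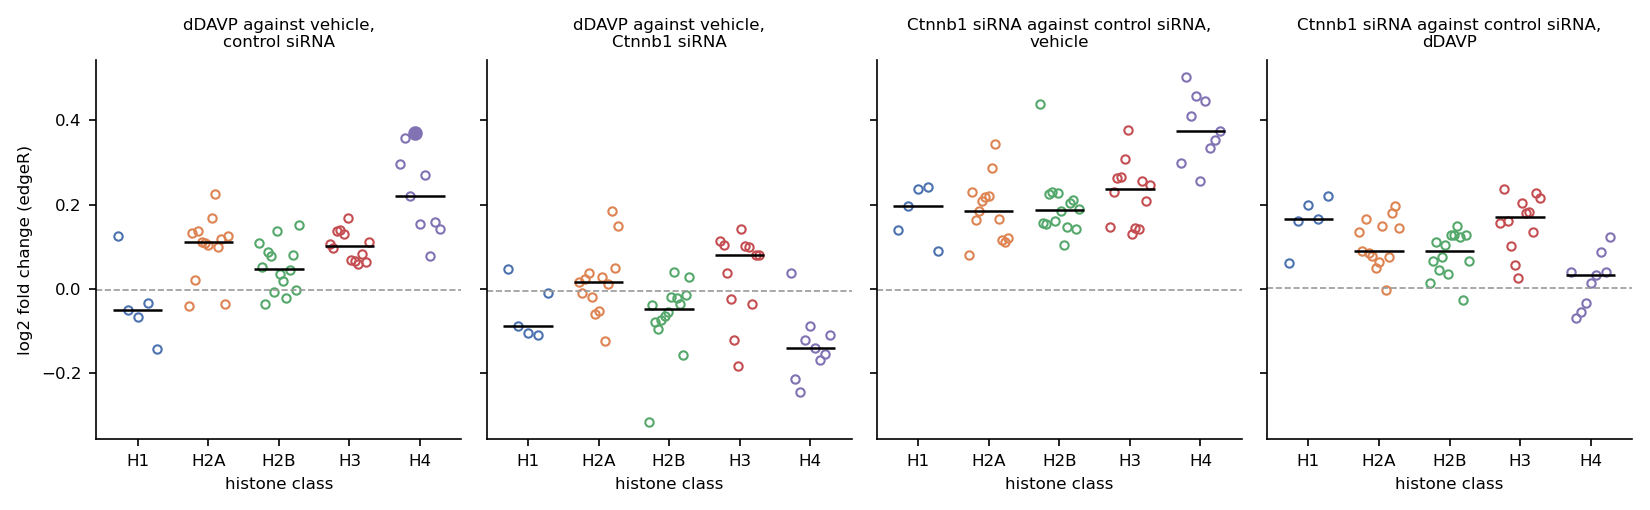
log2 fold change (edgeR) of each tested histone gene, by class, in the 4 comparisons of 2 groups; black lines are class medians, the dashed line the median over all 16508 tested genes, and the filled point the gene that was called. Under vehicle all 53 genes lie above 0 with Ctnnb1 siRNA, and the H4 genes lie highest there (median 0.37); under dDAVP the H4 median is 0.03.

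The H4 genes, which all encode the same core histone, had the highest class median under vehicle. H4c4 (gene ID 319156, chr13:23581568-23581969 on the plus strand) had 649.6, 561 and 552 CPM with control siRNA and vehicle, 596, 629 and 636 with control siRNA and dDAVP, 738, 719.7 and 764 with Ctnnb1 siRNA and vehicle, and 670.0, 778 and 527 with Ctnnb1 siRNA and dDAVP. Under vehicle its Ctnnb1 siRNA libraries all lay above the controls (log2 0.33, SE 0.107, adjusted p = 0.327); without replicate 3 of Ctnnb1 siRNA with dDAVP the adjusted p was 0.0208. H4c3 (gene ID 319155, chr13:23698084-23698458 on the minus strand) had 367, 299 and 280.5 CPM with control siRNA and vehicle, 339.8, 407 and 395 with control siRNA and dDAVP, 442, 414 and 434 with Ctnnb1 siRNA and vehicle, and 393, 470.2 and 305 with Ctnnb1 siRNA and dDAVP. Its vehicle groups did not overlap either (log2 0.45, SE 0.140, adjusted p = 0.329). H4c12 (gene ID 319160, chr13:21750145-21750553 on the minus strand) had 276, 241 and 236 CPM with control siRNA and vehicle, 262, 311 and 305 with control siRNA and dDAVP, 369, 319.8 and 312 with Ctnnb1 siRNA and vehicle, and 291, 346 and 208 with Ctnnb1 siRNA and dDAVP. It showed the same order under vehicle, with log2 0.41 (SE 0.153, adjusted p = 0.479). In all 3 genes replicate 3 of Ctnnb1 siRNA with dDAVP was the lowest library of its group.

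H4c14 (gene ID 97122, chr3:96262934-96263317 on the minus strand) is the gene of this family nearest to the threshold. It had 87.0, 84.1 and 75.0 CPM with control siRNA and vehicle, 105, 113 and 99.1 with control siRNA and dDAVP, 121, 109 and 107 with Ctnnb1 siRNA and vehicle, and 115, 109 and 86.8 with Ctnnb1 siRNA and dDAVP. The 3 control vehicle libraries were the lowest of its 12 values together with replicate 3 of Ctnnb1 siRNA with dDAVP, which lay just below the highest of them. Under vehicle the Ctnnb1 siRNA libraries were 1.37-fold higher with no overlap, with log2 0.46 (SE 0.0934, edgeR adjusted p = 0.0504), on the border of the threshold. Under dDAVP the siRNA groups overlapped and the log2 difference was -0.03 (adjusted p = 0.922).

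The linker histone H1 genes had fold changes in the same direction under vehicle. H1f2 (gene ID 50708, chr13:23738807-23739531 on the plus strand) had 827, 833 and 844 CPM with control siRNA and vehicle, 792, 839 and 784 with control siRNA and dDAVP, 971, 910.2 and 988 with Ctnnb1 siRNA and vehicle, and 977, 956 and 767 with Ctnnb1 siRNA and dDAVP. Its 3 control vehicle values lay close together, and all 3 Ctnnb1 siRNA vehicle values above them (log2 0.20, SE 0.0733, adjusted p = 0.440). H1f4 (gene ID 50709, chr13:23621777-23622558 on the minus strand) had 742, 742 and 797 CPM with control siRNA and vehicle, 679.6, 785 and 761 with control siRNA and dDAVP, 920.1, 862 and 913 with Ctnnb1 siRNA and vehicle, and 868, 921 and 707 with Ctnnb1 siRNA and dDAVP. H1f3 (gene ID 14957, chr13:23555032-23555807 on the plus strand) had 606, 599 and 596 CPM with control siRNA and vehicle, 516, 633 and 571 with control siRNA and dDAVP, 695, 684 and 744 with Ctnnb1 siRNA and vehicle, and 672, 749 and 554 with Ctnnb1 siRNA and dDAVP. Neither overlapped under vehicle; log2 was 0.24 (SE 0.0814, adjusted p = 0.354) for H1f4 and 0.24 (SE 0.0917, adjusted p = 0.479) for H1f3.

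Among the core histones H2A and H3, the most abundant genes also lay higher with Ctnnb1 siRNA under vehicle. H2ac18 (gene ID 15267, chr3:96245497-96246052 on the plus strand) had 542, 484 and 515 CPM with control siRNA and vehicle, 560.5, 556 and 545 with control siRNA and dDAVP, 636, 548 and 609 with Ctnnb1 siRNA and vehicle, and 578, 670.4 and 470.5 with Ctnnb1 siRNA and dDAVP. Its neighbour H2ac19 (gene ID 319192, chr3:96239779-96240374 on the minus strand) shares every coding window with other genes, as does H2ac18, and had 544, 489 and 518 CPM with control siRNA and vehicle, 566, 533 and 568 with control siRNA and dDAVP, 642, 552 and 613 with Ctnnb1 siRNA and vehicle, and 581, 685 and 475 with Ctnnb1 siRNA and dDAVP. Both were non-overlapping between the vehicle groups, with log2 0.22 (SE 0.0977, adjusted p = 0.595) and 0.22 (SE 0.101, adjusted p = 0.607). H2ac20 (gene ID 319176, chr3:96220413-96220880 on the minus strand) had 276, 243 and 269.8 CPM with control siRNA and vehicle, 312, 271 and 303 with control siRNA and dDAVP, 344, 294 and 325 with Ctnnb1 siRNA and vehicle, and 312, 382 and 288 with Ctnnb1 siRNA and dDAVP. Its groups did not overlap under vehicle (log2 0.29, SE 0.0943, adjusted p = 0.331).

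All 12 H3 genes had non-overlapping vehicle groups, the only class in which every tested gene did. Of all tested genes, 8.95% lay above without overlap. In the H3 genes a median of 84.7% of the coding windows was shared with other genes, so these are not 12 separate readings. H3c3 (gene ID 319148, chr13:23745042-23745521 on the minus strand) had 236, 222 and 210.3 CPM with control siRNA and vehicle, 245, 221 and 233 with control siRNA and dDAVP, 256, 237 and 246 with Ctnnb1 siRNA and vehicle, and 255, 296 and 241 with Ctnnb1 siRNA and dDAVP. Its vehicle groups did not overlap, with the nearest values close together (log2 0.14, SE 0.0705, adjusted p = 0.647). H3c1 (gene ID 360198, chr13:23761885-23762386 on the minus strand) had 209, 204 and 184 CPM with control siRNA and vehicle, 215, 208 and 219 with control siRNA and dDAVP, 228, 213 and 219 with Ctnnb1 siRNA and vehicle, and 240.0, 276 and 199.5 with Ctnnb1 siRNA and dDAVP. H3c2 (gene ID 319150, chr13:23752345-23752840 on the plus strand) had 204, 192 and 178 CPM with control siRNA and vehicle, 204, 195 and 204 with control siRNA and dDAVP, 214, 208 and 207 with Ctnnb1 siRNA and vehicle, and 226, 260.3 and 207 with Ctnnb1 siRNA and dDAVP. log2 was 0.15 (SE 0.0874, adjusted p = 0.746) for H3c1 and 0.13 (SE 0.0710, adjusted p = 0.707) for H3c2, and H3c2 was 1 of 2 genes whose siRNA groups did not overlap under dDAVP either.

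The most abundant H2B genes were the exception, since their vehicle groups overlapped. H2bc18 (gene ID 319189, chr3:96269700-96270192 on the plus strand) had 644, 543 and 453 CPM with control siRNA and vehicle, 559.8, 648 and 597 with control siRNA and dDAVP, 648, 609 and 664 with Ctnnb1 siRNA and vehicle, and 598, 703 and 548 with Ctnnb1 siRNA and dDAVP. Replicate 1 of control siRNA with vehicle reached the level of the Ctnnb1 siRNA libraries (log2 0.23, SE 0.115, adjusted p = 0.678). H2bc8 (gene ID 319181, chr13:23571400-23571863 on the plus strand) had 356, 305 and 277 CPM with control siRNA and vehicle, 297, 334 and 306 with control siRNA and dDAVP, 341, 334 and 360.3 with Ctnnb1 siRNA and vehicle, and 331, 389.6 and 303 with Ctnnb1 siRNA and dDAVP. H2bc3 (gene ID 319178, chr13:23746734-23747223 on the plus strand) had 388, 305 and 278 CPM with control siRNA and vehicle, 294, 362 and 327 with control siRNA and dDAVP, 332, 338 and 373 with Ctnnb1 siRNA and vehicle, and 336, 407 and 330.2 with Ctnnb1 siRNA and dDAVP. In both the same control library was high, above all but 1 of the Ctnnb1 siRNA vehicle libraries for H2bc8 and above all 3 for H2bc3, and log2 was 0.14 (SE 0.0948, adjusted p = 0.793) and 0.10 (SE 0.120, adjusted p = 0.921). That library was the highest of its group for 39 of the 53 histone genes (for 34.5% of all tested genes). Replicate 3 of the same group was the lowest for 39 (for 30.8% of all tested genes).

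**Figure D4:**
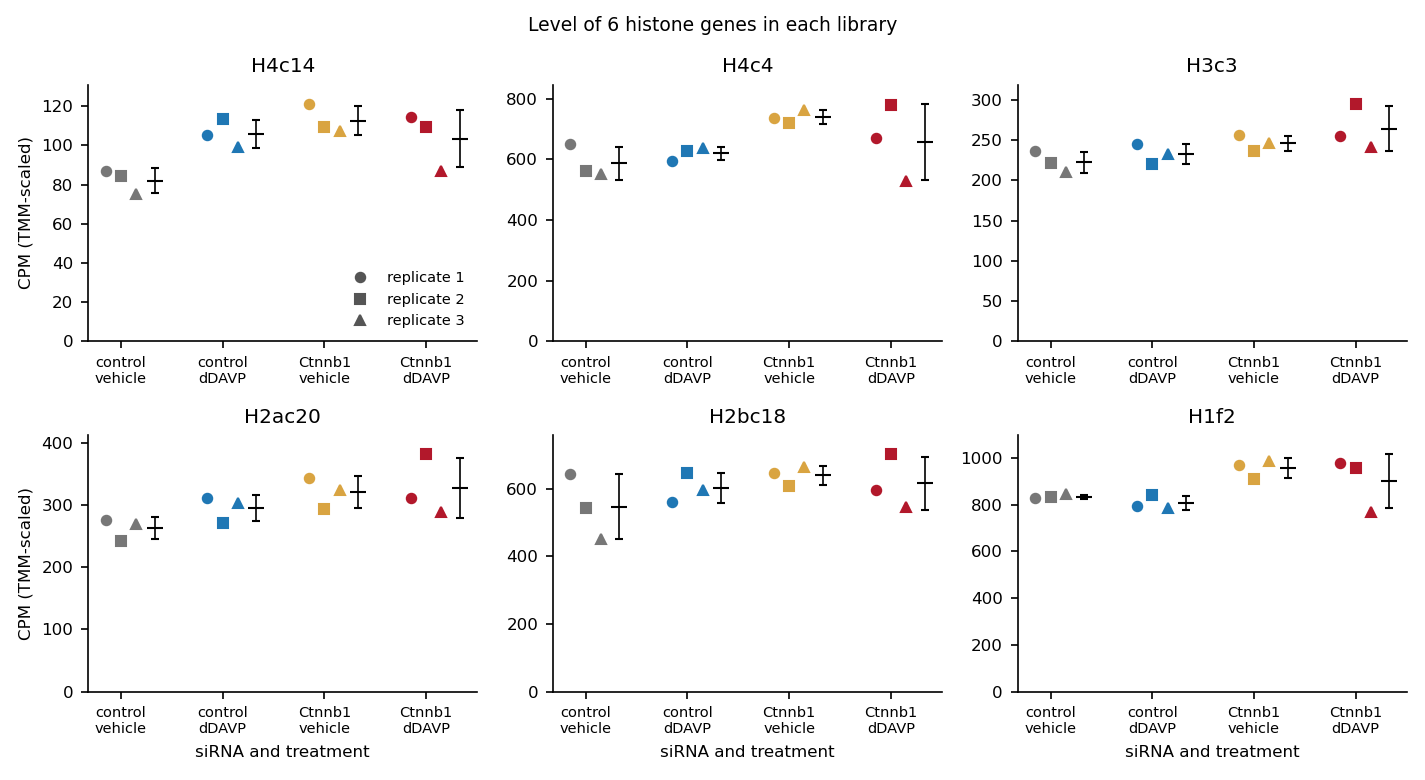
CPM of H4c14, H4c4, H3c3, H2ac20, H2bc18 and H1f2 in each of the 12 libraries; symbols mark the replicate, bars the mean ± SD of 3 libraries. Ctnnb1 siRNA with vehicle lies above control siRNA with vehicle in every gene shown but H2bc18, and in all 6 genes the triangle of Ctnnb1 siRNA with dDAVP (replicate 3) is the lowest of its group.

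Under dDAVP no histone gene was called between the siRNAs. Of the 53 genes 48 had a fold change above 0 (50.4% of all genes), with a median of 0.10, and 0 were called in either direction (of all genes 0.121% were called higher and 0.145% lower). At an unadjusted p under 0.05, 9 were higher and 0 lower (6.13% of all genes were higher and 5.53% lower), and DESeq2 called 0 (0.976% of the genes with an adjusted p were called higher). H3c10 and H3c2 were the 2 genes without overlap between the groups, both above the controls (7.26% of all genes lay above without overlap and 6.02% below). The median was 0.17 for H1 and H3, 0.09 for H2A and H2B, and 0.03 for H4. Without replicate 3 of Ctnnb1 siRNA with dDAVP all 53 genes were above 0, the median was 0.21, and 10 genes were called higher (0.618% of all genes): H1f2, H1f3, H1f4, H3c1, H3c2, H3c6, H3c7, H3c8, H3c10 and H3c11. The median of the H4 genes was then 0.15, and none of them was among the 10. Without replicate 2 of the same group, its highest, the median over the 53 genes was 0.0068. It was 0.04 with a gene length offset and -0.00 on log2(TPM + 1), where 26 of the 53 were above 0 and the median of all genes was -0.07, so its size under dDAVP depends on single libraries and on the scale.

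Averaged over both treatments, Ctnnb1 siRNA gave a fold change above 0 in all 53 genes (49.7% of all genes), from 0.09 to 0.25, with a median of 0.16. The median was 0.07 on log2(TPM + 1), a scale on which the median of all genes lay below 0 under each treatment. It was 0.097 with a gene length offset and 0.11 without replicate 2 of Ctnnb1 siRNA with dDAVP. None was called by edgeR, where 0.939% of all genes were called higher and 0.909% lower, while DESeq2 called 10 higher (2.12% of the genes with an adjusted p). At an unadjusted p under 0.05, 33 were higher and 0 lower, against 6.78% of all genes higher and 6.42% lower, and these included all 12 H3 genes. The nearest to the threshold was H3c10 with log2 0.23 (SE 0.0575, adjusted p = 0.0548). Without replicate 3 of Ctnnb1 siRNA with dDAVP, 30 genes were called higher and 0 lower (1.99% of all genes were called higher): all 12 H3 genes, 7 H2A, 5 H4, 3 H1 and 3 H2B genes. The median was then 0.21, and H1f2, for example, had log2 0.23 (adjusted p = 7.40e-04). Without replicate 2 of control siRNA with dDAVP, or replicate 1 of control siRNA with vehicle, 1 gene was called.

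**Figure D5:**
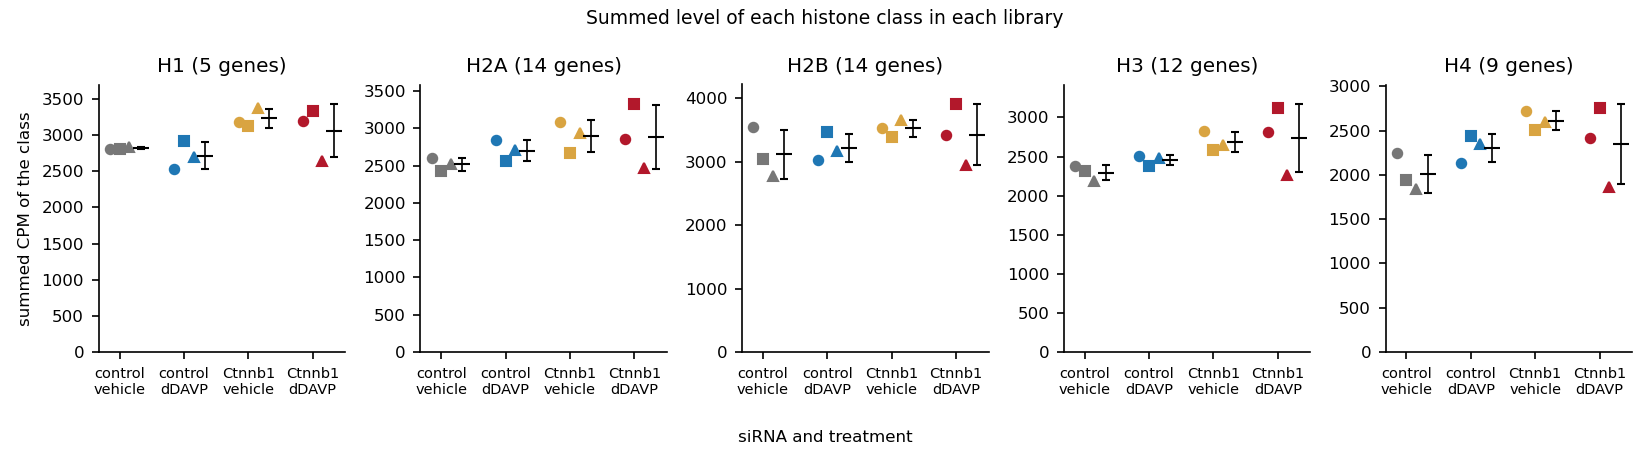
Summed CPM of each histone class in each of the 12 libraries; symbols mark the replicate (circle 1, square 2, triangle 3), bars the mean ± SD of 3 libraries. H4 has the widest relative difference between the vehicle groups, 1841 to 2252 CPM with control siRNA and 2512 to 2725 with Ctnnb1 siRNA, and replicate 3 of Ctnnb1 siRNA with dDAVP falls to 1867.

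By class sums, the ratio of Ctnnb1 to control siRNA under vehicle was 1.29 ± 0.141 for H4, 1.14 for H1 and H2A, 1.13 for H2B and 1.16 for H3. Under dDAVP it was 1.00 for H4, and 1.11 without replicate 3 of Ctnnb1 siRNA with dDAVP. H1 summed to 2813, 2808 and 2832 CPM with control siRNA and vehicle and to 3188, 3128 and 3380 with Ctnnb1 siRNA and vehicle. H4 summed to 2252, 1943 and 1841 CPM and to 2725, 2512 and 2593 in the same groups. Neither class overlapped between the vehicle groups. H2B did overlap, with 3540, 3038 and 2772 CPM against 3535, 3389 and 3656.

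dDAVP with control siRNA asks how the hormone analogue changes the family in cells whose β-catenin mRNA was not targeted. H4c14 rose and was the only gene called: its 3 dDAVP libraries (105, 113 and 99.1 CPM) all lay above its vehicle libraries (87.0, 84.1 and 75.0 CPM), 1.29-fold higher, with log2 0.37 (SE 0.0934, edgeR adjusted p = 0.0497). None was called lower; of all genes 1.91% were called higher and 0.915% lower, so 1 of 53 is near the background. The call was lost without any 1 of the 6 control siRNA libraries, without replicate 2 or 3 of Ctnnb1 siRNA with vehicle, and with upper-quartile scaling, with adjusted p from 0.00282 to 0.212 over 23 alternatives. Of the 53 genes 43 were above 0 (48.7% of all genes), with a median of 0.10, which was 0.05 on log2(TPM + 1). At an unadjusted p under 0.05, 2 were higher and 0 lower (7.37% and 7.24% of all genes). The dDAVP libraries lay above the vehicle libraries without overlap in 9, against 10.2% of all genes, and below in 0 (12%). By class the median was 0.22 for H4 (9 of 9 above 0), 0.10 for H3 (12 of 12), 0.11 for H2A, 0.05 for H2B and -0.05 for H1 (1 of 5). H4c11 had log2 0.36 (adjusted p = 0.240), and without replicate 3 of Ctnnb1 siRNA with dDAVP it was called with H4c14 (3.05% of all genes were called higher). Small structural RNA took 1.67%, 2.49% and 2.05% of reads in these dDAVP libraries and 1.94%, 1.50% and 1.32% in the vehicle libraries. With small structural RNA and mitochondrial ribosomal RNA left out of the fit H4c14 was still called.

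With Ctnnb1 siRNA, dDAVP gave no call among the 53 genes in either direction, where 2.08% of all genes were called higher and 0.697% lower. At an unadjusted p under 0.05, 0 were higher and 0 lower (7.74% and 5.91% of all genes), and DESeq2 called 0 (3.17% of the genes with an adjusted p were called higher). Only 20 were above 0 (48.5% of all genes), with a median of -0.03, and in none did the groups separate (of all genes 9.54% did so upwards and 8.3% downwards). H4c14 stood at log2 -0.12 (adjusted p = 0.641). The sign of the median turned with 1 library: without replicate 3 of this dDAVP group it was 0.07, with 42 of 53 above 0 and 0 called (2.04% of all genes were called higher), and without replicate 2 it was -0.13. With voom and sample weights it was 0.03. The median of the H4 genes was -0.14 with that library and -0.01 without it.

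Whether the response to dDAVP differed between the siRNAs was tested as an interaction, and no gene of the 16508 was called (0% in each direction). Of the histone genes, 3 had an unadjusted p under 0.05, all lower with Ctnnb1 siRNA (2.36% of all genes were lower and 2.66% higher), and DESeq2 called 0 (0% of all genes). These were H4c14 (log2 -0.49, SE 0.132), H4c11 (log2 -0.57) and H2ac21 (log2 -0.35), with a smallest adjusted p of 0.918. All 9 H4 genes had a negative interaction, with a median of -0.31. Over the 53 genes the median was -0.10 and 14 were above 0 (51.1% of all genes). Without replicate 3 of Ctnnb1 siRNA with dDAVP the median over the 53 genes was 0.0038 with 28 above 0, and that of H4 was -0.18 with 0 of 9 above 0. Without replicate 2 of that group the median over the 53 genes was -0.21, and with voom and sample weights -0.048. The H4 genes share the library that stands apart and much of their sequence, so they are not 9 separate readings. Averaged over the siRNAs, dDAVP gave no call (4.33% of all genes were called higher and 2.54% lower), a median of 0.02 and 38 genes above 0, with 2 higher and 0 lower at an unadjusted p under 0.05 (9.94% and 9.11% of all genes). Without replicate 3 of Ctnnb1 siRNA with dDAVP, H3c1, H3c11 and H4c14 were called higher (4.58% of all genes) and the median was 0.086. Without replicate 2 of that group it was -0.020, on log2(TPM + 1) -0.026 and with voom and sample weights 0.073. The comparisons share libraries, and their values are only set side by side.

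By features that the choice by name did not use, the genes differed as follows. Under vehicle, the median log2 difference of the siRNAs was 0.20 for the 28 genes with a GGCTC stem, 0.36 for the 8 H4 genes with GGCCC or GGTCC, and 0.21 for the 17 tested genes without a match. The stem and the class coincide, so they cannot be told apart. Genes on chromosome 3 had a median of 0.28 (n = 10) and those on chromosome 13 of 0.20 (n = 43).

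Few genes of the wider histone pathway were called. Replication-independent variants are made through the cell cycle from polyadenylated mRNAs, and 0 of 9 tested were called in any of the 4 comparisons of 2 groups. Averaged over the siRNAs, H2afv, the gene of an H2A.Z variant, fell with dDAVP (log2 -0.17, SE 0.0438, adjusted p = 0.0307), where 2.54% of all genes were called lower. Their median log2 difference between the siRNAs was 0.00 under vehicle and 0.04 under dDAVP. Some were in the same range of levels as the replication-dependent genes: H2afz, the gene of H2A.Z, had a mean of 1539 TPM, and H3f3b and H3f3a, which both encode H3.3, 1355 and 1039.6 TPM. Under vehicle their log2 differences between the siRNAs were 0.03, -0.01 and 0.00. H2afx, whose mRNA is known to end either in a stem-loop or in a poly(A) tail, stood at 0.13 (SE 0.085).

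Of 20 genes of histone mRNA 3′ end processing and decay, 0 were called in the same comparisons, with a median of -0.03 for Ctnnb1 siRNA under vehicle. Slbp, whose protein binds the stem-loop, had a mean of 331 TPM and log2 0.04 under vehicle and 0.13 under dDAVP between the siRNAs. The U7-specific proteins were low: Lsm10 at 24.5 TPM and Lsm11 at 7.03 TPM. Casp8ap2 (FLASH) and Zfp473, which take part in the same cleavage, stood at 40.02 and 6.45 TPM. Eri1, an exonuclease that trims the stem-loop, and Upf1, a helicase of histone mRNA decay, stood at 45.1 and 46.6 TPM. Upf1 had log2 -0.23 for Ctnnb1 siRNA under dDAVP (adjusted p = 0.154). Of 19 genes of the histone locus body and histone gene transcription, among them Npat (50.6 TPM), the coactivator of histone genes, and Hinfp (22.9 TPM), a factor of H4 promoters, 0 were called.

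Of 40 genes of S phase and DNA replication, 0 were called in these comparisons, with a median of -0.01 for Ctnnb1 siRNA under vehicle and 0.06 under dDAVP. Of 22 histone chaperones, Rbbp7 rose with dDAVP under Ctnnb1 siRNA (log2 0.26, SE 0.0649, adjusted p = 0.0458), and no other was called. Of 25 genes of G2 and M phase, Ccna2, the gene of cyclin A2, fell with dDAVP under Ctnnb1 siRNA (log2 -0.22, SE 0.055, adjusted p = 0.0433). Averaged over the siRNAs, 5 of these 25 fell with dDAVP (2.54% of all genes were called lower): Ccna2, Bub1, Top2a, Nusap1 and Ttk. The median of the list for dDAVP was -0.12 with control siRNA (0 of 25 above 0) and -0.07 with Ctnnb1 siRNA (1 of 25). For Ctnnb1 siRNA the median of this list was 0.02 under vehicle and 0.04 under dDAVP, with 0 called. The 13 small structural RNAs tested, which like the histone mRNAs have no poly(A) tail, had a median of 0.45 for Ctnnb1 siRNA under vehicle and 0.21 under dDAVP, with 0 called.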

How the data were processed

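The 12 libraries (4 groups of 3) hold total RNA after removal of ribosomal RNA, prepared with a strand-specific kit per the labels' protocols. The submitters' processing notes name FastQC, Trimmomatic, HISAT2, StringTie, DESeq2 and GRCm38 (mm10), without versions; how reads with several matches or strand were counted is not given in the sources used here. The read counts per gene were deposited by the authors without scaling, and the TPM values are the authors' length-scaled values, per the file headers. CPM values are these counts scaled to library totals after TMM scaling, computed here. Counts of all 12 libraries were fitted with edgeR 4.0.16 (R 4.3.3; filterByExpr, TMM, robust quasi-likelihood, 1 coefficient per group, 8 residual degrees of freedom), which tested 16508 genes; p-values were adjusted by Benjamini-Hochberg over all of them, with calls at an adjusted p under 0.05. limma 3.58.1 and DESeq2 1.42.0 gave alternatives. The procedure was tested on simulated data with a common spread, no deviating library and folds larger than those of the histone genes. That test therefore does not cover folds as small as those here. The members and lists were chosen with earlier results of these data known. Values in every library are given for the 3 genes of each class with the highest mean TPM and for any gene called. Gene positions, stem-loops and promoters come from RefSeq and GENCODE tables of GRCm38; all 54 genes matched RefSeq, and H2bc21, H2bc4, H3c1, H3c7 and H4c14 had no promoter entry.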

Additional observations from a re-analysis of the deposited data

How the results depend on the processing

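No histone gene was called lower under any alternative. Shares in brackets are those of all genes called higher in the same fit. For Ctnnb1 siRNA under vehicle (0 histone genes called higher), 1 was called with DESeq2 (0.665%), RLE size factors (0.218%), no filter on low counts (0.135%), a filter of 1 CPM in 3 libraries (0.324%) and a gene length offset (0.456%, lengths known for 87.73% of tested genes), 9 with limma's voom and sample weights (0.715%), and 18 with only the 2 groups compared (0.943%). For the average Ctnnb1 siRNA effect (0 called), it was 10 with DESeq2 (2.12%), 22 with voom (2.82%), 1 with the 1 CPM filter (1.32%) and 2 with the length offset (1.81%). For dDAVP with control siRNA (1 called) it was 0 with upper-quartile scaling (1.91%), 2 with voom (4.28%) and 2 with only the groups compared (2.75%), and for Ctnnb1 siRNA under dDAVP (0 called) 1 with voom (0.812%). The median of the family, leaving out no library, ranged over these alternatives and log2(TPM + 1) from 0.14 to 0.23 for Ctnnb1 siRNA under vehicle, -0.0013 to 0.16 under dDAVP and 0.074 to 0.18 on average, and from 0.053 to 0.11 for dDAVP with control siRNA and -0.095 to 0.026 with Ctnnb1 siRNA. On log2(TPM + 1) the median of all genes itself lay below 0 for Ctnnb1 siRNA under each treatment, which these ranges do not take into account. Leaving out 1 library at a time, the counts ranged from 0 to 12 for Ctnnb1 siRNA under vehicle, 0 to 10 under dDAVP and 0 to 30 on average, and from 0 to 2 for dDAVP with control siRNA and 0 to 3 on average; for dDAVP with Ctnnb1 siRNA and for the interaction they were 0. The highest of each range came without replicate 3 of Ctnnb1 siRNA with dDAVP. The direction of H4c14 for Ctnnb1 siRNA under dDAVP (log2 -0.03) turned to 0.10 with voom, to 0.02 without replicate 2 of control siRNA with dDAVP and to 0.079 without that replicate 3 (range over libraries left out -0.11 to 0.079). The cause of these changes was not tested. The H1 share ratio under vehicle was 1.09 on TPM and 1.14 on reads. Same-numbered libraries did not deviate together (correlations from -0.124 to 0.210 over 18 pairs, and 4 of 12 libraries correlated best with their own number), so the numbers are not taken as pairs; with a replicate block 1 gene was called for Ctnnb1 siRNA under vehicle (0.145%) and 2 on average (0.812%), and the other counts did not move. Precision is limited by 3 libraries a group, with a common biological coefficient of variation of 8.26%. Counts of near-identical copies depend on how shared reads were assigned, which is unknown, and depth limits only H2ac1.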

Other observations

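The TPM of H2bc6 did not always follow its reads. It had 235, 199.7 and 193 TPM with control siRNA and vehicle and 502, 494 and 477 with dDAVP, while its CPM were 282, 224 and 205 against 222, 267 and 246. With Ctnnb1 siRNA it had 238, 509 and 542 TPM under vehicle and 227, 555 and 599 under dDAVP, against 272, 261 and 287 CPM and 272, 303 and 224 CPM. The length implied by reads and TPM together ran from 750.3 to 2359 bases between libraries, a ratio of 3.14, whereas it moved by at most 1.01-fold for the other histone genes examined. The large TPM differences of H2bc6 between libraries thus go with the length used. Smaller ones also follow its reads, as among the control siRNA libraries with vehicle.

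The table also lists 12 further histone symbols outside the naming rule: Hist1h2al, Hist1h2an, Hist1h2ao, Hist1h2ap, Hist1h2bp, Hist1h2bq, Hist1h2br, Hist1h4m, Hist1h4n, H2aw, H2bu2 and H4f16. Together they took 0.151% to 0.209% of reads per library. With them added, an alternative chosen after seeing the data, the ratio of histone shares between the siRNAs under vehicle was again 1.17.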
